A study of Mus musculus with 30 samples.

Results

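The integrated stress response and amino acid genes described here are Atf4, Atf5, Ddit3, Trib3, Chac1, Asns, Psat1, Phgdh, Sesn2 and Slc7a11. They were found by gene symbol, and all 10 are among the 14685 genes of the expression table. All 10 were above 1 FPKM in at least 1 sample, as were 14525 genes of the table, which were tested. FPKM, a count of sequenced fragments scaled to transcript length and library size, is a level per length, so that levels of different genes can be set side by side. The table had been quantile normalised by the authors and holds no read counts. Sequencing depth is therefore unknown, and error is given as the spread between replicates.

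The samples are cells of E14, a mouse embryonic stem cell line, differentiated towards blood in culture. The 5 populations were ESC, Flk1 (Flk1+ cells taken from embryoid bodies on magnetic columns), HE1, HE2 and Progenitor. All 3 sorted populations were KIT+. HE1 was also Tie2+ and CD41-, HE2 was positive for both of these markers, and Progenitor cells were CD41+ but no longer Tie2+. HE1 and HE2 are stages of haemogenic endothelium, the endothelium that gives rise to blood, and both were sorted with the progenitors at day 2 of blast culture. Each population was measured in WT, Sp1_deltaDBD and Sp3KO cells with 2 replicates, which makes 15 groups and 30 samples. Sp1_deltaDBD cells lack the part of Sp1 that binds DNA but not the whole gene, and Sp3KO cells carry a knockout of Sp3. No further allele or treatment is named for any group, and each genotype is a single ESC line, so that the effect of a mutation and other differences between the lines cannot be told apart.

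The integrated stress response is a shared answer of cells to amino acid shortage, misfolded protein in the endoplasmic reticulum, viral RNA and haem shortage. Each of these activates a kinase that phosphorylates the initiation factor Eif2s1, which slows translation of most messages but favours that of Atf4. The ATF4 protein then switches on genes of amino acid synthesis and uptake, together with Ddit3, which encodes CHOP, and feedback genes. Because ATF4 is controlled in large part at translation, the level of its mRNA says little about the amount of protein, and no protein was measured here. Sp1 and Sp3 are widely expressed zinc finger factors that bind GC boxes in promoters.

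In the expression table the labels were checked with the targeted genes. Sp3 lay between 3.38 and 7.79 FPKM in the 10 Sp3KO samples and between 25.9 and 58.1 FPKM in the 10 WT samples. Sp1 lay between 14.8 and 40.5 FPKM in the Sp1_deltaDBD samples and between 24.9 and 52.4 FPKM in WT, and a value for the whole gene does not show whether the DNA-binding part is missing.

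The populations carried the markers of their names, but some lists overlapped between populations and some libraries stood apart. The summed level of the ESC markers Pou5f1, Nanog, Zfp42 and Sox2 was 995 to 1253 FPKM in ESC and at most 96.8 FPKM in any other sample. Endothelial markers (Cdh5, Pecam1, Tek and Kit) summed to 699 to 1085 FPKM in HE1, and embryonic globins with Gata1 and Klf1 summed to 1546 to 13635 FPKM in Progenitor cells. The progenitor markers Itga2b, Runx1, Gfi1b and Myb overlapped, at 169 to 320 FPKM in Progenitor cells and 154 to 233 in HE2. So did the mesoderm markers Kdr, T, Mesp1 and Etv2, at 294 to 538 FPKM in Flk1 and 212 to 361 in HE1. The smooth muscle and mesenchyme markers Acta2, Tagln, Col1a1 and Pdgfra, none of which defines HE1, summed to 1751 FPKM in WT replicate 1 and 977 FPKM in Sp1_deltaDBD replicate 1 of HE1, and to between 114 and 348 FPKM in the other 4 HE1 samples. WT and Sp1_deltaDBD replicate 1 stood above replicate 2 for these markers in HE2 too, at 436 and 358 FPKM against 67.7 and 34.3. In Progenitor cells the sums were 272 and 138 FPKM against 75.7 and 18.9. The epithelial markers Epcam, Cdh1, Krt8 and Krt18 summed to 711 and 63.0 FPKM in the WT HE1 replicates and to 217 and 14.2 in WT HE2. Such a sum from bulk RNA does not tell more cells of a type from more RNA per cell, and this holds for each result below. Results in HE1 are therefore also given without replicate 1 of WT or Sp1_deltaDBD HE1 where leaving it out changes a call. The part of these sums in the HE2 and Progenitor results was not tested.

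The promoters of the 10 genes were read from RefSeq (GRCm38.p6, 250 bases before to 50 bases after the start), which held a window for all 10 genes and 12 windows in all. The core of the C/EBP-ATF response element, the element that ATF4 binds with a C/EBP partner, was searched on both strands as TGATGNAA. It was found in 4 of the 12 windows, from the 4 genes Asns, Chac1, Slc7a11 and Trib3, and in 3.97% of the 32851 windows of all genes. The GC box GGGCGG was found in 7 of the 12 windows, from the 6 genes Asns, Atf5, Chac1, Psat1, Sesn2 and Trib3, and in 35.7% of all windows. A match of letters is not evidence of binding. Shown here are the 4 stretches with a response element core, and those of Sesn2 and Phgdh, the 2 genes that passed the test between a mutant and WT; capitals mark matches to either motif, and each is written 5′ to 3′ along the gene's strand.

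Asns, chr6:7693223-7693252, minus strand: cgggttgggtcccagccacaTGATGAAAct
Chac1, chr2:119351032-119351211, plus strand: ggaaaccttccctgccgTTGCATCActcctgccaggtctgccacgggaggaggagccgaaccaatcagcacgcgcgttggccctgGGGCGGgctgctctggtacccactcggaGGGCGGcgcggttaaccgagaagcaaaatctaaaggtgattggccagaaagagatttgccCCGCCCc
Slc7a11, chr3:50443615-50443713, minus strand: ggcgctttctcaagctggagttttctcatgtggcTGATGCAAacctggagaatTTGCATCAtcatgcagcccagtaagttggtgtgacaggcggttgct
Trib3, chr2:152344026-152344055, minus strand: agctcaggtTTACATCAgccGGGCGGggat
Sesn2, chr4:132510502-132510556, minus strand: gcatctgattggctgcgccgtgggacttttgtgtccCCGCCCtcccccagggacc
Phgdh, chr3:98339991-98340069, minus strand: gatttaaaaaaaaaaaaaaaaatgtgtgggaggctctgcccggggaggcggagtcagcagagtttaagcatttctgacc

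The first base of the core lay at -23 from the RefSeq start in Asns, and at -66 and -47 in Slc7a11, which held a core on each strand. In GENCODE M21 the Asns gene (chr6:7675169-7693254, minus strand) starts further upstream, and the core begins at 23 after that start. In Chac1 the core began at -193, upstream of its 3 GC boxes. In Trib3 the core began at 15 after the RefSeq start, at a place that lies upstream of the start in GENCODE M21 (chr2:152337422-152344032, minus strand). The Sesn2 window held a single GC box, beginning at -64 from the RefSeq start. In GENCODE M21 the Sesn2 gene (chr4:132492032-132510501, minus strand) starts further upstream, closer to the box. The Phgdh window (gene at chr3:98313170-98339990, minus strand, GENCODE M21) held neither motif.

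Over the 30 samples the 10 genes ranged from abundant to scarce. Asns, Psat1 and Phgdh, 3 enzymes of amino acid synthesis, and Atf4 had high means, at percentiles 90.7, 93.0, 93.9 and 89.9 of all genes in the table. Slc7a11, Chac1 and Trib3 were scarce, with medians over the 30 samples of 1.25, 0.921 and 1.44 FPKM. Sesn2 and Ddit3 lay between, with medians of 16.0 and 7.89 FPKM. Atf5 was near 3 FPKM throughout, with a lowest sample of 1.34 and a highest of 5.21 FPKM.

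**Figure D1:**
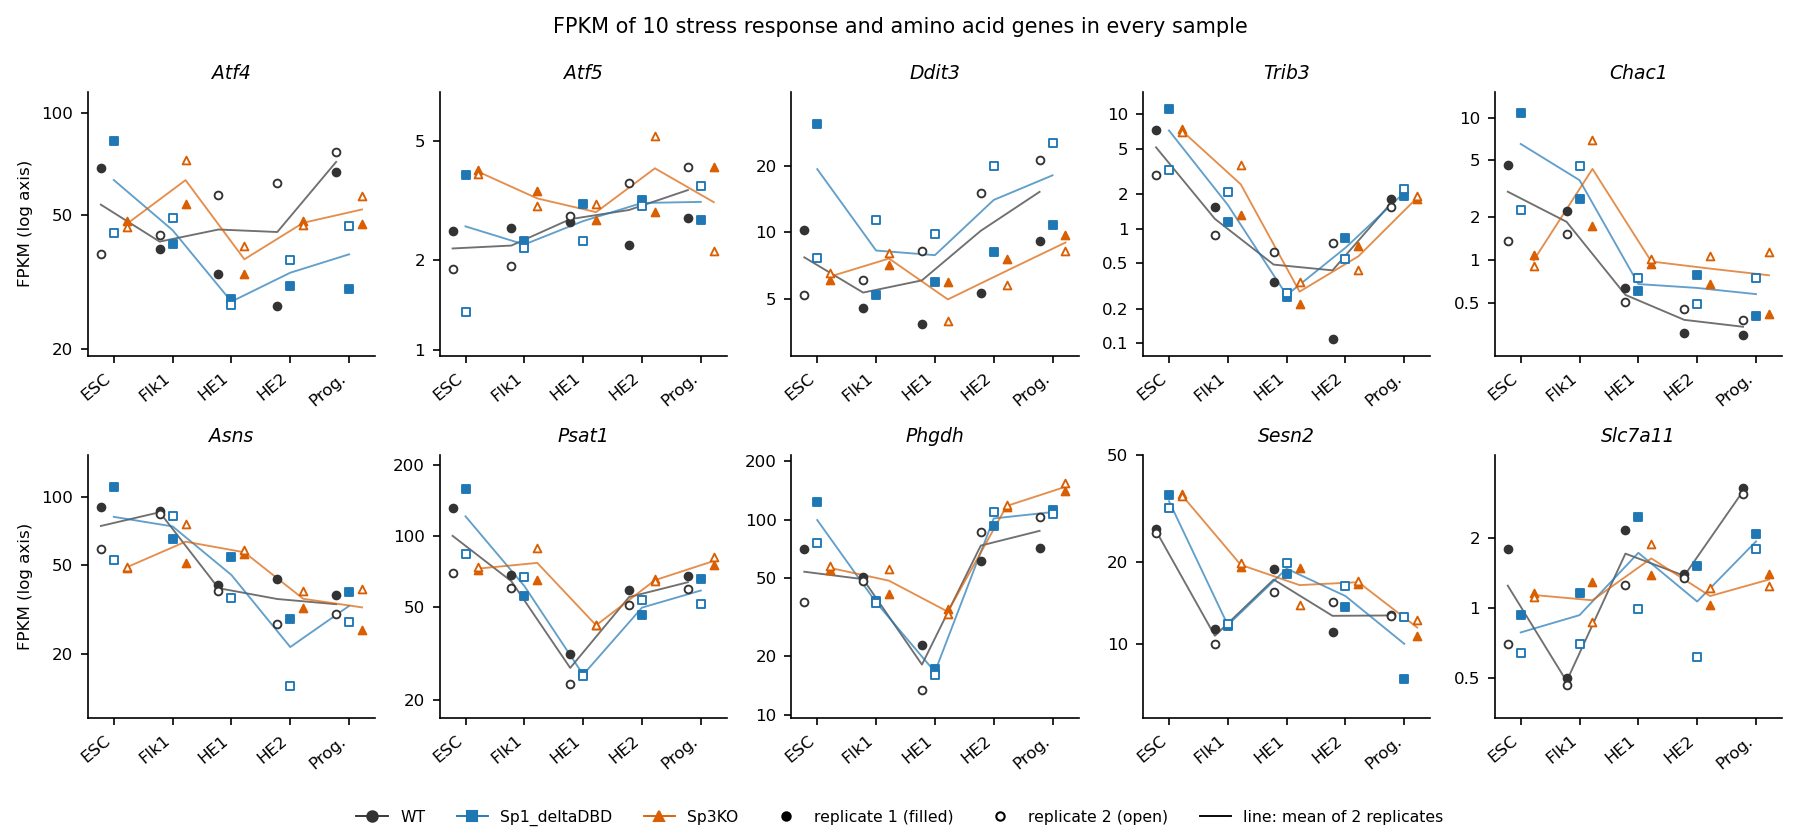
FPKM of each gene (y axis, log scale) in the 5 populations (x axis) for WT (black circles), Sp1_deltaDBD (blue squares) and Sp3KO (orange triangles); filled symbols are replicate 1, open symbols replicate 2, and lines join the means of the 2 replicates. Psat1 and Phgdh reach their lowest means in HE1 in each genotype, Trib3 spans 0.109 to 11.2 FPKM, and the ESC replicates of WT and Sp1_deltaDBD lie far apart in most panels.

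Differentiation of the WT cells was examined first, step by step, with limma on log2(FPKM + 0.1) over all 30 samples and Benjamini-Hochberg adjustment within each step. Of 40 gene and step combinations 11 passed an adjusted p of 0.05, with 5 rises and 6 falls, and 16 had an unadjusted p below 0.05. Over all genes tested 35.1% of combinations passed, so the 27.5% of the members is near the background. By step, 3 of 10 genes passed from ESC to Flk1 (52.2% of all genes), 5 of 10 from Flk1 to HE1 (53%), 2 of 10 from HE1 to HE2 (21.9%) and 1 of 10 from HE2 to Progenitor (13.2%).

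The enzymes of serine synthesis dipped in HE1. Phgdh, which makes the first committed step from a glycolytic intermediate towards serine, measured 70.6 and 37.7 FPKM in the 2 WT ESC samples, 50.9 and 48.3 in Flk1 cells, 22.8 and 13.4 in HE1 cells, 61.3 and 86.2 in HE2 cells and 72.01 and 104 in Progenitor cells. Both HE1 samples were below all other WT samples. By limma Phgdh fell by 1.5 on the log2 scale from Flk1 to HE1 (95% interval -2.07 to -0.92, adjusted p = 0.00014) and rose by 2.05 from HE1 to HE2 (1.48 to 2.63, adjusted p = 4.8e-05). Psat1, the aminotransferase that follows Phgdh, measured 131 and 69.2 FPKM in ESC, 68.4 and 59.7 in Flk1 cells, 31.4 and 23.3 in HE1 cells, 58.9 and 50.8 in HE2 cells and 67.8 and 59.2 in Progenitor cells. Its HE1 samples too were below all others. It fell by 1.24 from Flk1 to HE1 (limma adjusted p = 0.00061) and rose by 1.01 from HE1 to HE2 (adjusted p = 0.010). The rise of Psat1 missed the threshold without HE1_WT replicate 2 (0.80, adjusted p = 0.099) or without HE2_WT replicate 1 (0.91, adjusted p = 0.074).

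Asns, which makes asparagine from aspartate and glutamine, also fell into HE1 but did not come back. Its WT values were 90.1 and 58.8 FPKM in ESC, 87.0 and 84.5 in Flk1 cells, 40.5 and 38.0 in HE1 cells, 43.0 and 27.2 in HE2 cells and 36.4 and 30.1 in Progenitor cells. ESC and Flk1 were high and did not separate from each other, and the 3 later populations were low, with overlap between HE1 and HE2 and between HE2 and Progenitor cells. The fall from Flk1 to HE1 was 1.13 on the log2 scale (limma adjusted p = 0.011), and it missed the threshold by a little without Flk1_WT replicate 1 (adjusted p = 0.051) or HE1_WT replicate 2 (adjusted p = 0.055).

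Trib3 and Chac1 are feedback and output genes of the response. TRIB3 is a pseudokinase that restrains ATF4 and CHOP, and CHAC1 breaks down glutathione. Trib3 was high in WT ESC, at 7.36 and 2.93 FPKM, lower in Flk1 at 1.56 and 0.887, lower again in HE1 at 0.342 and 0.633 and in HE2 at 0.109 and 0.760, and back at 1.81 and 1.57 in Progenitor cells. It fell by 1.89 on the log2 scale from ESC to Flk1 (limma adjusted p = 0.015) and rose by 2.07 from HE2 to Progenitor (adjusted p = 0.031). These calls are fragile. The fall was not called without ESC_WT replicate 1 (-1.25, adjusted p = 0.18) or Flk1_WT replicate 2 (-1.52, adjusted p = 0.12). The rise was 1.05 with an adjusted p of 0.41 without HE2_WT replicate 1, whose 0.109 FPKM is the lowest value of the gene, and it was not called without Progenitor_WT replicate 1 (1.97, adjusted p = 0.15) or replicate 2 (2.17, adjusted p = 0.086), or with a pseudocount of 1 (0.94, adjusted p = 0.13). Chac1 went from 4.67 and 1.36 FPKM in WT ESC to 0.297 and 0.381 in Progenitor cells, and no single WT step of it passed (lowest adjusted p = 0.062, Flk1 to HE1, -1.53).

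Sesn2 and Slc7a11 changed in a different order. Sesn2, a sestrin that restrains mTORC1 when leucine is short and that p53 also controls, measured 26.6 and 25.7 FPKM in WT ESC, 11.4 and 10.03 in Flk1 cells, 19.0 and 15.6 in HE1 cells, 11.1 and 14.3 in HE2 cells and 12.8 and 12.7 in Progenitor cells. ESC was above all other populations. The fall from ESC to Flk1 was 1.28 (limma adjusted p = 1.5e-05), and the rise from Flk1 to HE1 was 0.68 (adjusted p = 0.0057). The rise was not called without Flk1_WT replicate 2 (0.59, adjusted p = 0.056) or HE1_WT replicate 1 (0.54, adjusted p = 0.070). Slc7a11, the cystine carrier of the exchanger xCT, measured 1.80 and 0.702 FPKM in WT ESC, 0.499 and 0.467 in Flk1 cells, 2.19 and 1.26 in HE1 cells, 1.41 and 1.35 in HE2 cells and 3.30 and 3.12 in Progenitor cells. It rose by 1.59 from Flk1 to HE1 (limma adjusted p = 0.0052), and by 1.22 without HE1_WT replicate 1, the library with the high mesenchyme markers, which was not called (adjusted p = 0.073). The fall of Slc7a11 from ESC to Flk1 was barely past the threshold (-1.08, adjusted p = 0.048), and it was lost in 21 of 30 fits that each left out 1 sample. Its values in HE2 and Progenitor cells did not overlap, but the step was not called (1.16, adjusted p = 0.096) unless the replicate number was a block (adjusted p = 0.022).

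The transcription factors showed no called WT step. Atf4 was between 26.8 and 76.8 FPKM in the 10 WT samples, and neighbours in the order of its means (Progenitor, ESC, HE1, HE2, Flk1) overlapped throughout. Ddit3 was between 3.85 and 21.4 FPKM with the same overlap. Atf5, a relative of Atf4 that is also translated under stress, was between 1.86 and 4.08 FPKM.

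The mutant cells shared part of these steps. Of the 11 called WT steps, 10 went in the same direction in each mutant. Called in that direction were 7 in Sp1_deltaDBD and 4 in Sp3KO cells. In all, 20 of 80 gene and step combinations passed beside 30.8% over all genes, with 5 rises and 15 falls. In Sp1_deltaDBD cells the 4 steps passed for 48.6%, 46.1%, 20% and 15.8% of all genes, and in Sp3KO cells for 48.8%, 44.0%, 14.4% and 8.77%. These steps were added after the WT values had been seen. From HE1 to HE2 Phgdh rose by 2.60 on the log2 scale in Sp1_deltaDBD cells (limma adjusted p = 5.9e-06) and by 1.80 in Sp3KO cells (adjusted p = 0.00035). From Flk1 to HE1 Psat1 fell by 1.25 in Sp1_deltaDBD cells (adjusted p = 0.00074) and by 0.86 in Sp3KO cells (adjusted p = 0.012). In that step Phgdh fell by 1.18 in Sp1_deltaDBD cells (adjusted p = 0.0016), and in Sp3KO cells the value of -0.51 did not pass (adjusted p = 0.14). Trib3 fell from Flk1 to HE1 by 2.18 in Sp1_deltaDBD (adjusted p = 0.0072) and 2.60 in Sp3KO cells (adjusted p = 0.0021), and Chac1 by 2.22 (adjusted p = 0.011) and 1.75 (adjusted p = 0.041). Neither of these falls was called in WT, at -1.17 for Trib3 (limma adjusted p = 0.12) and -1.53 for Chac1 (adjusted p = 0.062). Sesn2 fell from ESC to Flk1 by 1.51 in Sp1_deltaDBD (adjusted p = 2.2e-06) and by 0.85 in Sp3KO cells (adjusted p = 0.0011). Other steps passed in some genotypes only. The WT rise of Trib3 from HE2 to Progenitor was not called in Sp1_deltaDBD (1.49, limma adjusted p = 0.12) or Sp3KO cells (1.57, adjusted p = 0.14). That of Psat1 from HE1 to HE2 was called in Sp1_deltaDBD (0.94, adjusted p = 0.017) but not in Sp3KO cells (0.64, adjusted p = 0.12). The step of Asns from Flk1 to HE1 was -0.74 in Sp1_deltaDBD (adjusted p = 0.092) and -0.13 in Sp3KO cells (adjusted p = 0.81), and that of Slc7a11 was 0.74 (adjusted p = 0.19) and 0.57 (adjusted p = 0.32). Sesn2 in that step rose by 0.69 in Sp1_deltaDBD cells (adjusted p = 0.0065), and in Sp3KO cells its value was -0.27 (adjusted p = 0.28). From ESC to Flk1 the value of Slc7a11 was 0.20 in Sp1_deltaDBD (adjusted p = 0.74) and -0.094 in Sp3KO cells (adjusted p = 0.89). Chac1 rose by 1.72 from ESC to Flk1 in Sp3KO cells (adjusted p = 0.040), where the WT value was -0.46 (adjusted p = 0.60). Whether a step differed between genotypes was tested only from ESC, as a change of the mutation effect.

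Each mutant was then compared with WT in each population, which asks whether loss of the Sp1 DNA-binding domain or of Sp3 moves these genes. In Sp1_deltaDBD cells none of the 50 gene and population combinations passed by limma, while 3 had an unadjusted p below 0.05, and 8.02% of combinations passed over all genes. In a fit that blocks on replicate number, 2 of the 50 passed, Phgdh in ESC and Atf4 in Progenitor cells. In Sp3KO cells 2 of 50 passed, both higher, with 10 at an unadjusted p below 0.05, and 11.5% passed over all genes. In ESC, Flk1, HE1, HE2 and Progenitor cells the share of all genes that passed was 6.06%, 5.54%, 10%, 9.67% and 8.78% for Sp1_deltaDBD. For Sp3KO it was 11.3%, 12.6%, 10.9%, 13.8% and 8.65%. The called shares of the members were at or below those of all genes. With 2 samples against 2 an exact permutation test cannot give a p below 0.333, so each call rests on the spread shared by the 15 groups.

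**Figure D2:**
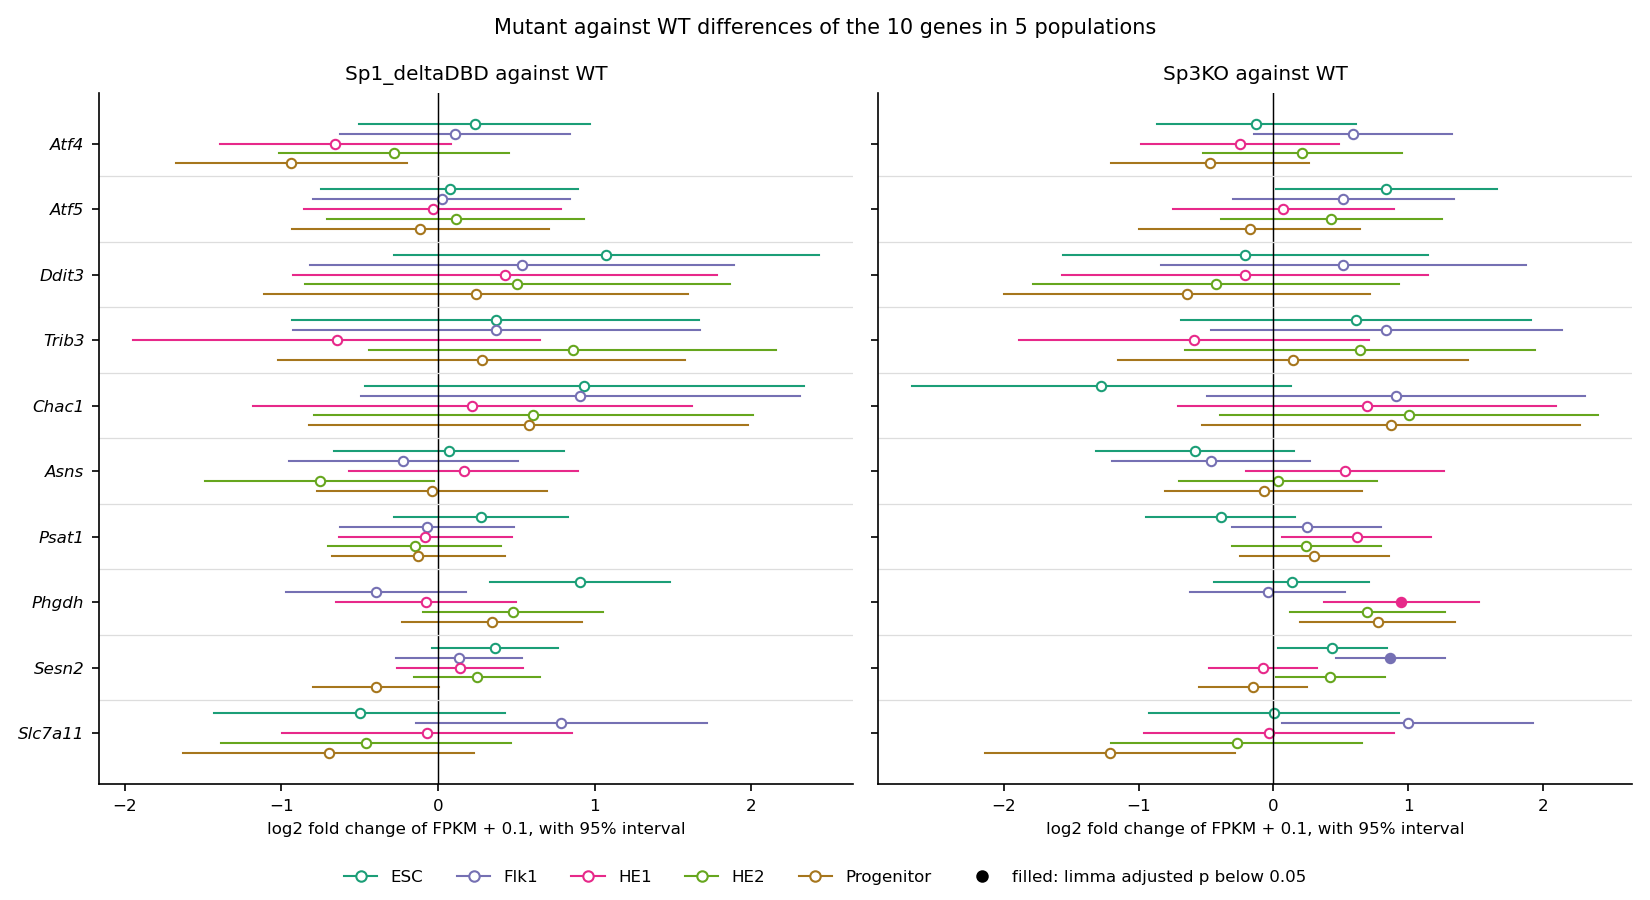
Log2 fold change of FPKM + 0.1 (x axis) of the 10 genes (y axis) in Sp1_deltaDBD against WT (left) and Sp3KO against WT (right), coloured by population; bars are 95% intervals from limma and filled points have an adjusted p below 0.05. Filled are only Sesn2 in Flk1 and Phgdh in HE1, both in Sp3KO cells, and the intervals of Ddit3, Trib3 and Chac1 are the widest.

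Sesn2 was higher in Sp3KO Flk1 cells. It measured 19.2 and 19.96 FPKM there, 11.4 and 10.03 in WT and 11.7 and 11.8 in Sp1_deltaDBD Flk1 cells. The Sp3KO samples were above all 4 others. The difference from WT was 0.87 ± 0.19 (SE) on the log2 scale, 1.82-fold, with an interval of 0.47 to 1.27 and a limma adjusted p of 0.0065; 6.69% of all genes were called higher in this comparison. Against Sp1_deltaDBD cells it was 0.73 (adjusted p = 0.025), and this call was lost with a correction for GC content and length (0.48, adjusted p = 0.071) and in each of the 4 fits that left out a Flk1 sample of these genotypes (adjusted p between 0.082 and 0.15). Against WT it was lost without Flk1_WT replicate 2 (0.78, adjusted p = 0.092) or without Flk1_Sp3KO replicate 1 (0.89, adjusted p = 0.054).

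Sesn2 is a target of p53 as well as of ATF4, and a list of 6 other p53 targets was counted beside it. Of these, 5 were lower in Sp3KO than in WT Flk1 cells: Cdkn1a, the cell cycle inhibitor p21 (-0.98, limma adjusted p = 0.0035), Mdm2, which degrades p53 (-0.61, adjusted p = 0.013), Ccng1 (-1.40, adjusted p = 4.0e-05), Trp53inp1 (-1.53, adjusted p = 0.020) and Phlda3 (-1.15, adjusted p = 0.00029). Over the 10 comparisons with WT, 27 of 60 combinations of these 6 genes passed (45.0%, beside 9.74% over all genes), with 25 lower and 2 higher. Their part in the Sesn2 result was not tested. In ESC the Sesn2 values were 26.6 and 25.7 FPKM in WT, 35.5 and 31.9 in Sp1_deltaDBD and 35.8 and 35.1 in Sp3KO cells, without overlap between WT and either mutant but without a call (0.36, adjusted p = 0.33, and 0.44, adjusted p = 0.16). Averaged over the 5 populations Sesn2 was higher in Sp3KO cells by 0.30 (adjusted p = 0.0092), a call lost with the GC and length correction (0.063, adjusted p = 0.49).

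Phgdh was higher in Sp3KO HE1 cells. It measured 34.7 and 32.9 FPKM there, 22.8 and 13.4 in WT and 17.3 and 15.9 in Sp1_deltaDBD HE1 cells. The Sp3KO samples were again above all 4 others. The difference from WT was 0.95 ± 0.27 (SE), 1.93-fold, with an interval of 0.37 to 1.52 and a limma adjusted p of 0.032; 6.02% of all genes were called higher in this comparison. Against Sp1_deltaDBD cells it was 1.02 (adjusted p = 0.018). Without HE1_WT replicate 1, which held the high mesenchyme markers, the difference from WT was larger, at 1.33 (adjusted p = 0.023). Without HE1_WT replicate 2 it was 0.57 (adjusted p = 0.29), and without either Sp3KO sample the adjusted p was 0.14. With HE1 fitted alone it was not called against WT (adjusted p = 0.13) or Sp1_deltaDBD (adjusted p = 0.097), and the latter was also lost with the GC and length correction (0.72, adjusted p = 0.074). Phgdh is higher in HE2 and Progenitor cells than in HE1 in each genotype. The blood progenitor markers Itga2b, Runx1, Gfi1b and Myb summed to 102 and 97.4 FPKM in Sp3KO HE1, 41.6 and 52.2 in WT HE1 and 48.8 and 63.3 in Sp1_deltaDBD HE1, and their part in the result was not tested.

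Phgdh stayed above WT in the later Sp3KO populations, without a call in either. It measured 116 and 119 FPKM in Sp3KO HE2 against 61.3 and 86.2 in WT (0.69, limma adjusted p = 0.097), and 141 and 154 FPKM in Sp3KO Progenitor cells against 72.01 and 104 in WT (0.77, adjusted p = 0.091). In neither population did the groups overlap. Averaged over the 5 populations Phgdh was higher in Sp3KO than in WT cells by 0.50 (0.24 to 0.76, adjusted p = 0.0031). With that average 2 of 20 combinations passed, Phgdh and Sesn2 in Sp3KO, beside 31.9% of all genes in Sp1_deltaDBD and 40.5% in Sp3KO cells. With the replicate block Chac1 in Sp1_deltaDBD passed too (0.65, adjusted p = 0.044). Psat1, the next enzyme, followed Phgdh in HE1, with 41.6 and 41.6 FPKM in Sp3KO against 31.4 and 23.3 in WT, but was not called (0.62, adjusted p = 0.14).

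In Sp1_deltaDBD cells the nearest to a call was Phgdh in ESC, with 124 and 75.6 FPKM against 70.6 and 37.7 in WT (0.91, 0.33 to 1.48, limma adjusted p = 0.058, or 0.025 under the replicate block). The lower mutant sample was little above the higher WT sample. Without ESC_WT replicate 1 the difference was 1.36, and without ESC_Sp1_deltaDBD replicate 2 it was 1.26. Without ESC_Sp1_deltaDBD replicate 1, which held the 124 FPKM, it was smaller, at 0.55. Atf4 was lower in Sp1_deltaDBD Progenitor cells, at 30.1 and 46.4 FPKM against 66.8 and 76.8 in WT, without overlap and without a call (-0.94, -1.68 to -0.20, adjusted p = 0.11), but with one under the replicate block (adjusted p = 0.037). Slc7a11 was 1.41 and 1.25 FPKM in Sp3KO Progenitor cells against 3.30 and 3.12 in WT and 2.09 and 1.80 in Sp1_deltaDBD, and the difference of Sp3KO from WT was not called either (-1.21, adjusted p = 0.10). The globin sum given above was 13635 and 4520 FPKM in WT, 1546 and 3477 in Sp3KO and 9667 and 7287 in Sp1_deltaDBD Progenitor cells, and its part in these differences was not tested.

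The study's threshold was a fold change above 2 with no test, and how replicates were combined is not given in the sources used here. Applied to group means of FPKM with 0.1 added, 8 of 100 combinations passed, 6 higher and 2 lower, beside 9.73% over all genes, and 4 passed with the difference of mean log2 values. By population the rule took 7.54%, 8.22%, 9.98%, 9.66% and 10.3% of all genes in Sp1_deltaDBD and 8.71%, 9.64%, 10.8%, 11.1% and 11.2% in Sp3KO cells. Chac1 made up 5 of the 8. It was above 2-fold higher in Sp1_deltaDBD ESC and in Sp3KO Flk1, HE2 and Progenitor cells, and lower in Sp3KO ESC. The others were Ddit3, higher in Sp1_deltaDBD ESC, and Slc7a11, higher in Sp3KO Flk1 and lower in Sp3KO Progenitor cells. None of these 8 was called by limma. Chac1 measured 10.8 and 2.23 FPKM in Sp1_deltaDBD ESC against 4.67 and 1.36 in WT, and 1.73 and 6.98 FPKM in Sp3KO Flk1 against 2.19 and 1.51 in WT. In both cases the ranges of mutant and WT overlap, as they do for Ddit3. The other 5 did not overlap, which with 2 samples against 2 is a description only. How often this holds over all genes past the same rule is not given. Chac1 measured 1.08 and 0.911 FPKM in Sp3KO ESC, 0.675 and 1.06 FPKM in Sp3KO HE2 against 0.305 and 0.454 in WT, and 0.416 and 1.15 FPKM in Sp3KO Progenitor against 0.297 and 0.381 in WT. Slc7a11 measured 1.29 and 0.867 FPKM in Sp3KO Flk1 against 0.499 and 0.467 in WT.

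Set directly against each other, Sp3KO and Sp1_deltaDBD cells differed in 3 of 50 combinations, beside 11.6% over all genes (from ESC to Progenitor 9.67%, 7.39%, 13.6%, 15.9% and 11.6%). These were the differences of Sesn2 in Flk1 and Phgdh in HE1 given above, and Chac1 in ESC, which was lower in Sp3KO cells, at 1.08 and 0.911 FPKM against 10.8 and 2.23 (-2.21, limma adjusted p = 0.042). Without ESC_Sp1_deltaDBD replicate 1, which holds the 10.8 FPKM, the Chac1 difference was -1.10 (adjusted p = 0.41), and 8 of the 30 fits that left out 1 sample did not call it.

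Whether a mutation acted differently in a later population than in ESC was tested as an interaction in the same fit. None of 80 combinations passed by limma, 10 had an unadjusted p below 0.05, and 2.13% passed over all genes. In Flk1, HE1, HE2 and Progenitor cells these shares were 1.74%, 3.99%, 2.62% and 3.15% for Sp1_deltaDBD and 1.48%, 2.16%, 0.544% and 1.34% for Sp3KO. The lowest adjusted p was 0.11, for Phgdh in Sp1_deltaDBD cells, whose difference from WT was lower in Flk1 than in ESC (-1.30 on the log2 scale, -2.11 to -0.49), and with the replicate block this passed (adjusted p = 0.048). The members that passed in a single population are therefore not shown to be particular to it.

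In 12 of the 15 groups the median absolute difference between replicates was larger for the 10 genes than for all genes tested, the exceptions being Sp3KO ESC, Sp1_deltaDBD HE1 and WT Progenitor cells. In WT ESC all 10 genes were higher in replicate 1 than in replicate 2, with a median difference of 0.91 on the log2 scale and a range of 0.051 to 1.70, while the median absolute difference of all genes tested was 0.23. In Sp1_deltaDBD ESC all 10 were again higher in replicate 1, with a median of 1.004 and a highest value of 2.23 (all genes 0.27). In Sp3KO ESC the replicates were alike, with a median of 0.037 and values between -0.097 and 0.22. Thus Ddit3 measured 31.2 and 7.67 FPKM in the 2 Sp1_deltaDBD ESC samples, 10.2 and 5.20 in WT and 6.09 and 6.52 in Sp3KO. Growth, day and handling are not given per replicate, so what separates the ESC replicates was not tested.

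**Figure D3:**
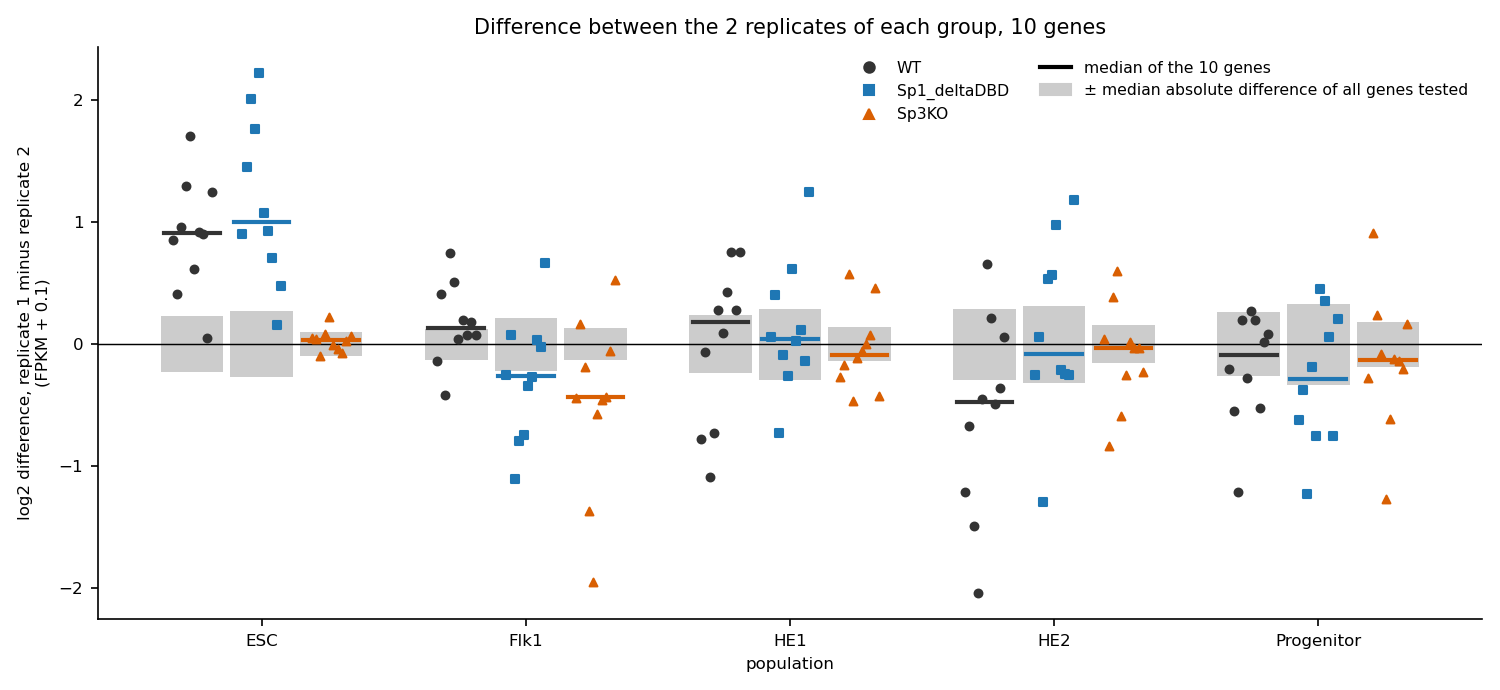
Log2 difference of replicate 1 minus replicate 2 (y axis) for each of the 10 genes in each group (x axis, 5 populations, coloured by genotype); thick lines are the median of the 10 genes and grey bars span plus and minus the median absolute difference of all genes tested. WT and Sp1_deltaDBD ESC lie wholly above 0 with medians of 0.91 and 1.004, and Sp3KO ESC lies within -0.097 to 0.22.

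In the later populations the direction varied. In Sp3KO Flk1 cells replicate 2 was the higher for 8 of 10 genes (median -0.43), most of all for Chac1 at 1.73 and 6.98 FPKM and Trib3 at 1.32 and 3.58 FPKM. Ddit3 was higher in replicate 2 in HE1, HE2 and Progenitor cells of both WT and Sp1_deltaDBD, for example at 5.29 and 15.1 FPKM in WT HE2 and 10.8 and 25.6 FPKM in Sp1_deltaDBD Progenitor cells, and lower in replicate 2 in these 3 populations of Sp3KO. Over the 15 groups, the replicate differences of Atf4 correlated with those of Trib3 (r = 0.84) and Ddit3 (r = 0.81), and those of Psat1 with those of Phgdh (r = 0.73). The median over the 45 pairs of members was 0.38. Sorted populations with the same replicate number may share a culture, so these 15 points are not independent and the values are a description only.

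The variation over the 30 samples was divided into population, genotype, their combination and replicate. For Trib3, Phgdh, Sesn2 and Psat1 the populations took 85.6%, 81.7%, 78.8% and 75.1% of it, above the median of all genes, 70.7%. For the 3 transcription factors they took little, 25.6% for Atf4, 26.3% for Ddit3 and 11.9% for Atf5, and the replicates took 38.7%, 47.0% and 56.2%, beside a median of 8.96% over all genes. Slc7a11 lay between, with 49.6% for the populations and 25.3% for the replicates. Genotype took at most 18.5%, for Ddit3.

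**Figure D4:**
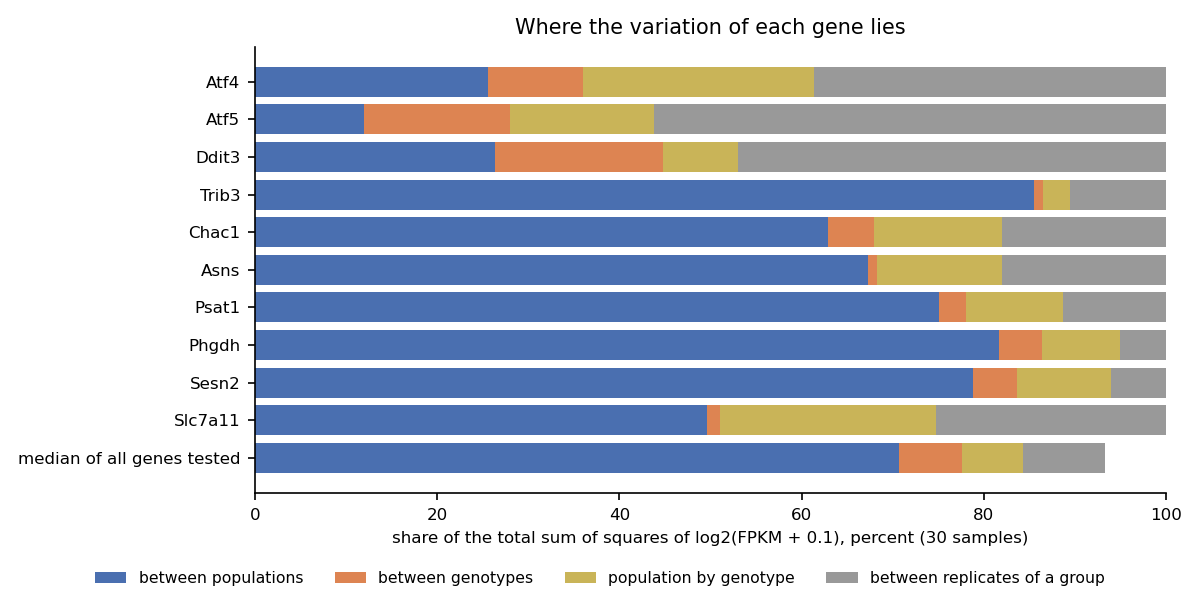
Share of the sum of squares of log2(FPKM + 0.1) over 30 samples (x axis, percent) that lies between populations, between genotypes, in their combination and between the replicates of a group, for the 10 genes and as the median of each share over all genes tested, taken separately so that the shares need not fill the bar (y axis). The grey replicate share is 56.2% for Atf5, 47.0% for Ddit3 and 38.7% for Atf4, and 5.07% for Phgdh.

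The genes whose pattern over the 15 group means was most like each member were found by Pearson's r. Nearest to Psat1 were Ahcy, the hydrolase of the methionine cycle (r = 0.96), Ttc27 (0.96) and Dnmt3b, a DNA methyltransferase (0.96). Nearest to Phgdh were Rcc2 (0.94), Adipor2 (0.94) and Pomt1 (0.92), and nearest to Sesn2 were Smpdl3b (0.96) and Arc (0.93). Nearest to Trib3 was Arih2 (0.96), to Chac1 Unc119b (0.95) and to Asns Cmtm6 (0.94). The 3 factors had looser matches, at most 0.87 for Atf4 (Lsm12), 0.88 for Atf5 (2810428I15Rik) and 0.88 for Ddit3 (Msl2), and Slc7a11 reached 0.90 (1110008F13Rik). No other member was among the 3 nearest genes of any member. Between members, the pattern was most alike for Chac1 and Asns (r = 0.82) and for Trib3 and Psat1 (r = 0.80), and the median over the 45 pairs was 0.25.

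The wider pathway was covered by a list of 58 further genes in the table, 57 of them tested, with the kinases and phosphatase of the response, other factors, enzymes, transporters and cytosolic tRNA synthetases. In the 10 comparisons with WT, 56 of 570 combinations passed, 24 higher and 32 lower, which is 9.82% beside 9.74% over all genes. Of these, 20 were in Sp1_deltaDBD cells (8 higher, 12 lower) and 36 in Sp3KO cells (16 higher, 20 lower). Per comparison with Sp3KO the share was between 5.26% in HE1 and 17.5% in ESC and HE2. The genes that passed in at least 3 comparisons in the same direction were 9. How many of all genes tested recur in this way is not given. Both mutants share the WT samples of a population, so the comparisons are not independent.

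Among the regulators of translation the changes that passed were falls. Eif2ak2, the kinase PKR that senses double-stranded RNA, was lower in 6 of 10 comparisons, in ESC, Flk1 and HE2 of Sp1_deltaDBD and in Flk1, HE2 and Progenitor cells of Sp3KO, by -1.25 to -0.76 on the log2 scale (largest limma adjusted p = 0.027). In WT HE2 Eif2ak2 measured 10.9 and 9.15 FPKM, against 6.04 and 5.71 in Sp1_deltaDBD and 4.59 and 4.37 in Sp3KO HE2. Eif2s1, the substrate of the kinases, was lower in Sp3KO ESC, Flk1 and HE2 (-0.54 to -0.46), at 78.0 and 80.3 FPKM in Sp3KO ESC against 111 and 119 in WT. Of the 70 combinations of kinases, Eif2s1 and phosphatase subunits, 9 passed (12.9%, beside 9.74% over all genes). All 9 were these falls of Eif2ak2 and Eif2s1.

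Of 120 combinations of the other factors on the list, 5 were higher and 7 lower, a called share near the 9.74% over all genes. Atf3, a stress-induced factor downstream of ATF4, was lower in Sp1_deltaDBD Progenitor cells and in HE2 and Progenitor cells of Sp3KO, by -2.80 to -1.77 (largest limma adjusted p = 0.032). It was at its highest in HE1, at 43.6 and 88.5 FPKM in WT, and in Progenitor cells measured 3.67 and 13.1 FPKM in WT, 1.90 and 1.58 in Sp1_deltaDBD and 0.637 and 1.28 in Sp3KO. Ero1l, an oxidase of the endoplasmic reticulum, was lower in Sp3KO ESC, Flk1 and HE2 (-1.19 to -0.49). Of the tRNA synthetases, Dars for aspartate was lower in 4 comparisons (-0.83 to -0.52) and Rars for arginine in 4 (-0.50 to -0.35). Of the 190 combinations of 19 synthetases 5 were higher and 12 lower (8.95% called, beside the same 9.74%).

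The rises that recurred were those of 2 serine enzymes and a carrier. Of 100 combinations of serine, glycine, proline and one-carbon enzymes 8 were higher and 2 lower, and of 90 combinations of transporters 6 were higher and 2 lower. The called share of each of these lists was near the 9.74% over all genes. Shmt2, the mitochondrial enzyme that turns serine into glycine, was higher in Sp3KO ESC, Flk1, HE1 and HE2 (0.57 to 1.02, largest limma adjusted p = 0.048). In HE1 Shmt2 measured 42.1 and 37.8 FPKM in Sp3KO, 21.3 and 18.9 in WT and 28.3 and 19.5 in Sp1_deltaDBD. Its means were lower in HE1 than in Flk1 and HE2 in each genotype, as were those of Phgdh and Psat1. Shmt1, the cytosolic enzyme, was higher in HE1 and HE2 of Sp1_deltaDBD and HE1 of Sp3KO (0.41 to 0.84) and lower in Sp3KO ESC (-0.40, adjusted p = 0.034). Slc7a5, the large neutral amino acid carrier, was higher in HE1 and HE2 of Sp1_deltaDBD and in HE2 of Sp3KO (0.85 to 1.17), at 13.3 and 12.98 FPKM in WT HE2, 24.3 and 29.4 in Sp1_deltaDBD and 28.7 and 30.6 in Sp3KO.

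**Figure D5:**
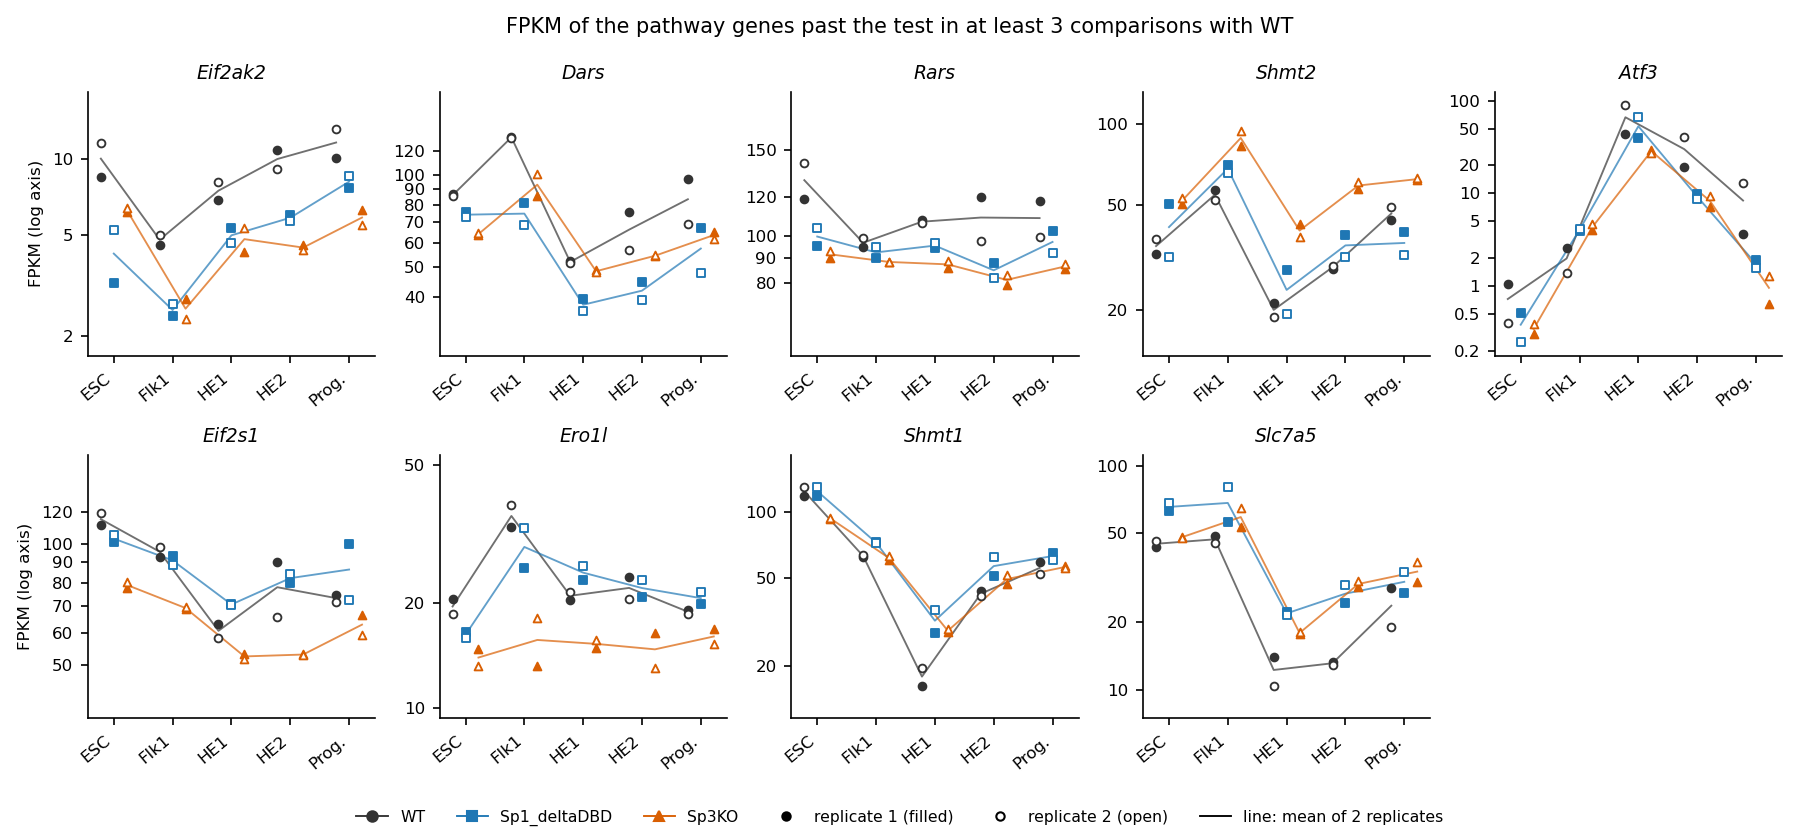
FPKM (y axis, log scale) of the 9 genes of the wider list that passed in at least 3 comparisons with WT, in 5 populations (x axis); colours, symbols and lines as in the plot of the 10 genes. The Sp3KO means of Shmt2 lie above the WT means and those of Eif2ak2, Eif2s1 and Ero1l below them in each of the 5 populations.

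Related pathways were counted beside these. Of the 11 genes of the IRE1 and ATF6 arms of the unfolded protein response, which answer misfolded protein without Atf4, 14 of 110 combinations passed, 3 higher and 11 lower, with 9 of the falls in Sp3KO cells (12.7%, beside 9.74% over all genes). Of 7 targets of Nrf2, the oxidative stress factor that also controls Slc7a11, 9 of 70 combinations passed, all 9 lower and 7 of them in Sp1_deltaDBD cells (12.9%, beside the same 9.74%).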

How the data were processed

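The deposited table holds FPKM values that the authors calculated with StringTie (1.3.3 per the labels) after trimming reads of ribosome-depleted total RNA and aligning them to mm10 with HISAT2 2.1.0. Per their methods, genes that reached 1 FPKM in no sample were removed, and the columns of the 30 samples were then quantile normalised together (14685 genes remain), so that at any rank samples differ by at most 0.192 FPKM. Quantile normalisation forces equal distributions and would hide a change shared by most genes, and without counts no depth or counting interval can be given.

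Samples were grouped by the genotype, population and replicate number in their labels. The 14525 genes above 1 FPKM in at least 1 sample were tested on the scale log2(FPKM + 0.1) with limma 3.58.1 in R 4.3.3, using an intensity trend and 15 group means over all 30 samples. P-values are two-sided and Benjamini-Hochberg adjusted over all genes within a comparison (threshold 0.05), and a log2 fold change is a difference of mean log2(FPKM + 0.1), which understates changes of low genes. The study's methods call the replicates biological. Samples of WT and Sp1_deltaDBD with the same replicate number deviated together in each population (correlations across genes 0.255 to 0.481), and comparisons of these 2 genotypes that pass only with the number as a block are given with it. The pairing comes from this check and not from the labels. Sorted populations of a genotype with the same replicate number deviated together from their group means (correlations across genes 0.382 to 0.458 in WT, 0.451 to 0.649 in Sp1_deltaDBD and 0.0264 to 0.161 in Sp3KO), and treating them as independent overstates the 15 residual degrees of freedom.

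The 10 genes, the wider lists, the motifs and the tests were chosen with earlier results of these data known. Named are the 10 genes, the listed pathway genes called in at least 3 of 10 comparisons with WT in 1 direction, the 3 genes most like each member over 15 group means (1 such gene is not reported here), and Sp1 and Sp3. Alternatives were a pseudocount of 1, no filter, a mean above 3 FPKM, no intensity trend, each population fitted alone, the replicate number as a block, a correction for GC content and length (GENCODE M21 transcripts, 14558 genes matched), and leaving out each sample. The fit was tested on simulated data. Of the list, Fgf21 was not found in the table, and Ero1a and Mars1 are listed there as Ero1l and Mars. Calculations used scipy 1.17.1, pandas 2.3.3 and numpy 2.4.6 under Python 3.11.15, with matplotlib 3.10.9 for figures.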

Additional observations from a re-analysis of the deposited data

How the results depend on the processing

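With a pseudocount of 1, 1 member passed in Sp1_deltaDBD cells against WT (0 in the fit reported) and 2 by the fold change rule (8 reported). That rule gave 5 with a mean above 3 FPKM required and 4 with the difference of mean log2 values. Testing only genes with a mean above 3 FPKM left 7 of 11 WT steps and 13 of 20 mutant steps, since low members were not tested. With each population fitted alone, which leaves fewer samples for the spread, 1 member passed in Sp3KO against WT (2 reported), 1 in Sp3KO against Sp1_deltaDBD (3 reported) and 16 combinations of the pathway list (56 reported). Leaving out each sample in turn gave 0 to 1 members in Sp1_deltaDBD against WT, 1 to 2 in Sp3KO against WT, 2 to 5 in the averages over populations, 8 to 13 WT steps, 16 to 21 mutant steps, 0 to 2 changes of an effect from ESC, 1 to 6 in Sp3KO against Sp1_deltaDBD, 6 to 12 by the fold change rule and 36 to 64 for the pathway list, with 36 and 37 without ESC_Sp3KO replicate 1 and 2. Without ESC_WT replicate 1 the averages gave 5 and the changes from ESC 2. One uncalled value changed sign, Sesn2 in HE1 of Sp3KO against Sp1_deltaDBD (-0.22 in the fit of all samples, -0.45 without HE1_Sp3KO replicate 1 and 0.012 without replicate 2). Over the 53 values of single members followed through all settings, 1769 values kept direction and side of the threshold, 90 lost a call and 45 gained one. The causes were not tested.

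Replicates of different genotypes share the numbers 1 and 2 in their labels, and nothing in the labels says what a number marks. Deviations of same-numbered samples correlated across genes at 0.00318 to 0.194 for WT and Sp3KO and -0.083 to 0.18 for Sp1_deltaDBD and Sp3KO. With the replicate number as a block, 2 members passed in Sp1_deltaDBD against WT, 4 in Sp3KO against WT (with Phgdh in HE2, adjusted p = 0.047, and Progenitor cells, adjusted p = 0.041), 5 in Sp3KO against Sp1_deltaDBD and 1 change of an effect from ESC (Phgdh in Sp1_deltaDBD Flk1 cells, adjusted p = 0.048).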

Other observations

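Other genes of the wider list were called in only 1 or 2 comparisons, and those named here were chosen after their values were seen. Gdf15, a secreted stress signal, was higher in Sp3KO ESC, at 1.42 and 1.27 FPKM against 0.423 and 0.180 in WT (1.92 on the log2 scale, limma adjusted p = 0.012). Cbs, which starts the conversion of homocysteine to cysteine, was lower in Sp1_deltaDBD Progenitor cells, listed at 0.00595 and 0.00816 FPKM against 0.823 and 0.411 in WT (-2.68, adjusted p = 0.00049, a size set by the pseudocount). Cebpb, a partner of ATF4, was higher in Sp3KO Flk1 cells, at 1.68 and 0.971 FPKM against 0.595 and 0.303 in WT (1.39, adjusted p = 0.049). Slc7a1, a carrier of cationic amino acids, was lower in Sp1_deltaDBD HE1 and Progenitor cells (-1.50 and -1.05, largest adjusted p = 0.044).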
